A study of Arabidopsis thaliana with 6 samples.

Results

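The secondary wall NAC and MYB network is the set of transcription factors that switch on, relay and restrain the deposition of cellulose, xylan and lignin in fibres and vessels. Its 34 members were taken by locus from the 34484 identifiers of the deposited table. They fell into 6 tiers: 3 fibre NAC switches, 7 vessel NAC switches, 2 downstream NACs, 2 MYB switches of the second tier, 11 downstream MYBs, and 9 repressors and modulators. All 34 loci were in the table.

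In Arabidopsis, NAC proteins (named for the NAM, ATAF and CUC genes) sit at the top of this network: NST and SND1 proteins direct wall thickening in fibres, and VND proteins direct it in vessels. They bind the promoters of MYB46 and MYB83, which in turn activate further MYB genes and the enzymes that make the wall. In the inflorescence stem this program builds the xylem vessels and the interfascicular fibres, and repressors such as MYB4, KNAT7 and XND1 hold it back in other cells or limit its extent.

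The study compared gene expression in mature stems of Arabidopsis thaliana plants with and without a mutation in γVPE. γVPE (GAMMA-VPE, AT4G32940) is a vacuolar processing enzyme, a cysteine protease linked to plant cell death. Total RNA of main stems was sequenced in 3 libraries titled γVPE mutant and 3 titled wild type, all at 42 days after flowering, from greenhouse plants kept at 20 °C under 16 h of light and 8 h of dark. The labels give neither the mutant allele, nor the accession of the plants, nor whether plants were pooled. The columns named WT_V were taken as the mutant because they were the set left over once WT had been matched to wild type. The titles number 3 replicates, whereas the design text says there were none, so each p-value reflects the spread among these libraries alone, and that spread may be technical.

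The mutated gene did not mark WT_V as a loss of transcript. GAMMA-VPE averaged 327 ± 1.57 FPKM in WT_V and 163 ± 0.863 FPKM in WT (SD, n = 3 each), with a log2 difference of 0.997 and a limma adjusted p of 2.48e-12. Directions are therefore stated by label, as WT_V libraries against WT libraries. Recovered depth was 47386022 to 51012957 fragments per WT_V library and 40307737 to 46466739 per WT library, and a single fragment over 1 kb of exon equalled 0.0196 to 0.0248 FPKM. Genes of other organs differed strongly: 9 seed markers summed to 15550 to 15810 FPKM in WT_V and to 0 to 0.0353 FPKM in WT, where 8 of them were listed at 0. Summed levels of 6 flower markers were 118.5 to 123.7 FPKM in WT_V and 27.95 to 31.14 FPKM in WT, those of 6 fruit valve margin markers 44.99 to 48.03 and 8.50 to 9.44 FPKM, and those of 8 seed coat markers 99.74 to 103 and 66.02 to 68.95 FPKM. The seed coat sum mixes directions. MUM2, its most abundant marker, was called lower, at 41.9 FPKM in WT_V and 55.4 FPKM in WT. The other 6 of 7 tested seed coat markers were called higher, such as BAN at 11.9 FPKM in WT_V and 0.315 FPKM in WT. Of the 7, 4 averaged under 1 FPKM in WT, BAN among them. These 4 entered the test only through WT_V, so their calls as higher carry little weight. The 6 anther markers each averaged under 1 FPKM over the 6 libraries, with sums of 2.27 to 3.36 FPKM in WT_V and 0.810 to 1.01 FPKM in WT. Of these, the tapetum gene A9 stood at 1.79, 2.02 and 1.09 FPKM in WT_V and at 0.0457, 0 and 0 FPKM in WT. AMS went the other way, at means of 0.349 FPKM in WT_V and 0.4715 FPKM in WT. CYP704B1 differed little, at 0.276 FPKM in WT_V and 0.265 FPKM in WT. In WT_V and WT, MS2 averaged 0.469 and 0.1685 FPKM, CYP703A2 0.113 and 0 FPKM, and MS1 0.0382 and 0 FPKM. The 4 markers of green stem tissue summed to 5886 to 5941 FPKM in WT_V and 8966 to 9077 FPKM in WT. The part of these other tissues in the differences below was not tested. In bulk RNA, fewer cells of a type and less RNA per cell cannot be told apart.

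Most of the network that could be tested was higher in WT_V. Of the 34 members, 23 had a mean of at least 1 FPKM over the 6 libraries and were tested with limma on log2(FPKM + 1). By limma adjusted p under 0.05, 19 were higher in WT_V, 3 were lower (MYB103, MYB32 and MYB7) and 1 was not called (VND3). The background was high: 76.0% of the 19144 genes tested were called, 51.9% as higher and 24.1% as lower. The members' median log2 difference was 0.66, against 0.17 over all genes tested. Of the tested members, 2 (MYB63 and MYB69) averaged under 1 FPKM in WT and passed the filter through WT_V. The WT_V and WT libraries did not overlap in 22 of the 23 tested members, against 77.6% of all genes tested. In 10 of these 23 the WT_V mean was at least 2 times the WT mean.

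**Figure D1:**
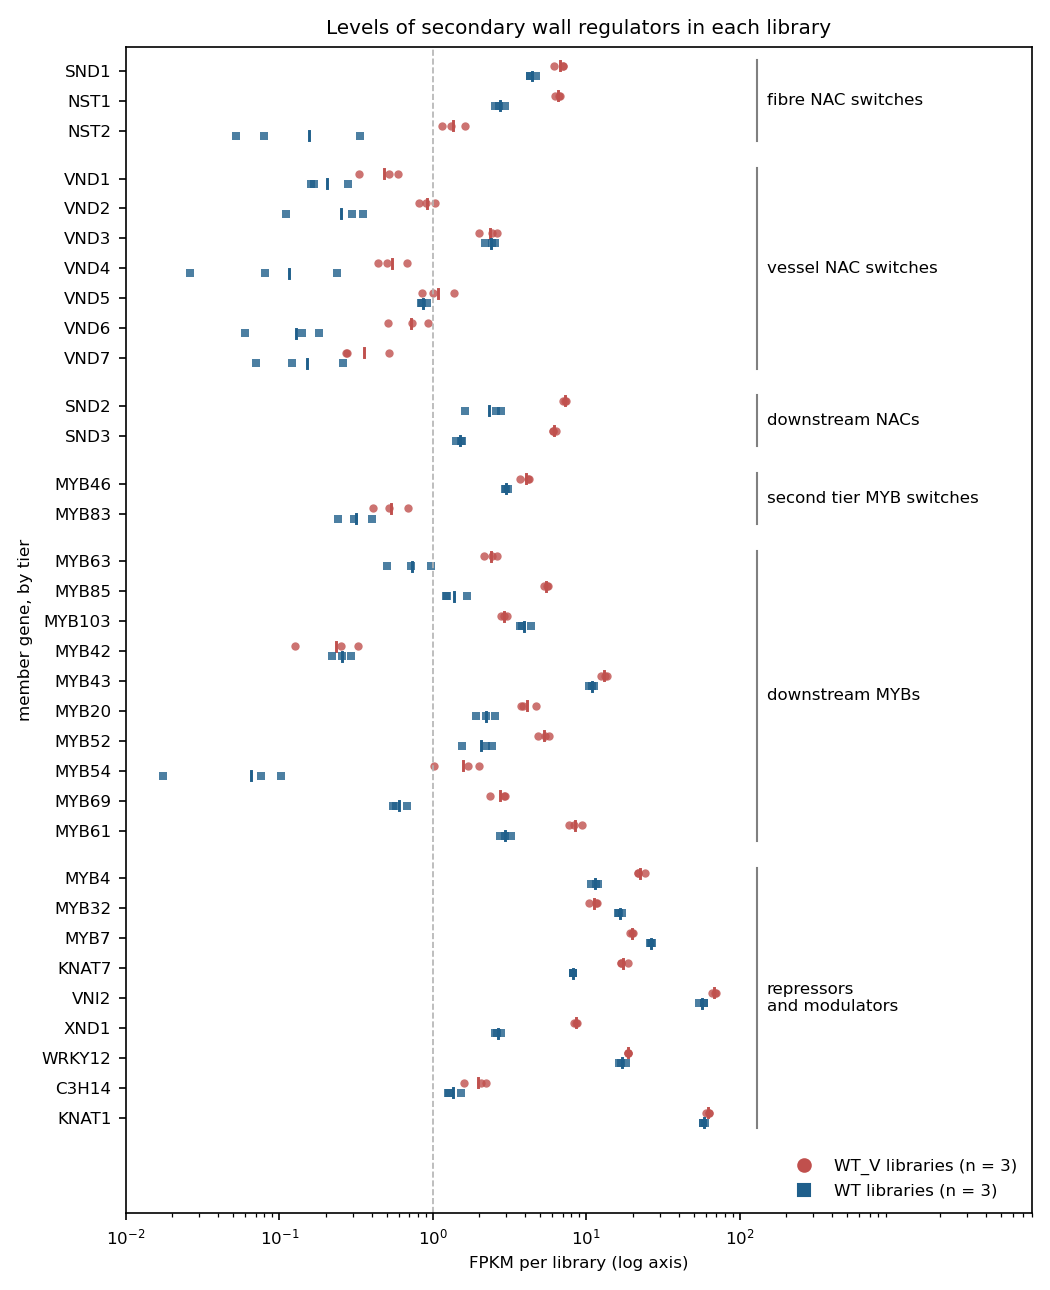
FPKM of 33 member genes in each library, on a log axis, grouped by tier, with WT_V circles drawn above WT squares and a vertical tick at each mean (n = 3 libraries per set). The dashed line marks 1 FPKM, the filter on the mean of the 6 libraries. MYB58 was listed at 0 in all 6 libraries and is not drawn. WT_V lies clear to the right of WT in 27 members, of which 19 were tested, and clear to the left in MYB103, MYB32 and MYB7. The sets did not overlap in 77.6% of all genes tested, and no such share was computed for genes under the filter.

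Part of the direction depended on how the libraries were scaled. Median-of-ratios scaling moved the median of all genes tested to 0.014 and quantile normalization moved it to -0.09, and 73.4% and 74.7% of genes tested were then called. The call was the same under the deposited scale and both alternatives in 14 of the 23 tested members. Of these, 11 were higher (NST1, SND2, SND3, MYB85, MYB52, MYB69, MYB61, MYB4, KNAT7, VNI2 and XND1) and 3 were lower (MYB103, MYB32 and MYB7). The sign of the difference was not the same under all 3 scalings in 5 members, which were MYB46, MYB43, WRKY12, C3H14 and KNAT1. Where a scaling ends or turns a call, its value is given with the gene.

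**Figure D2:**
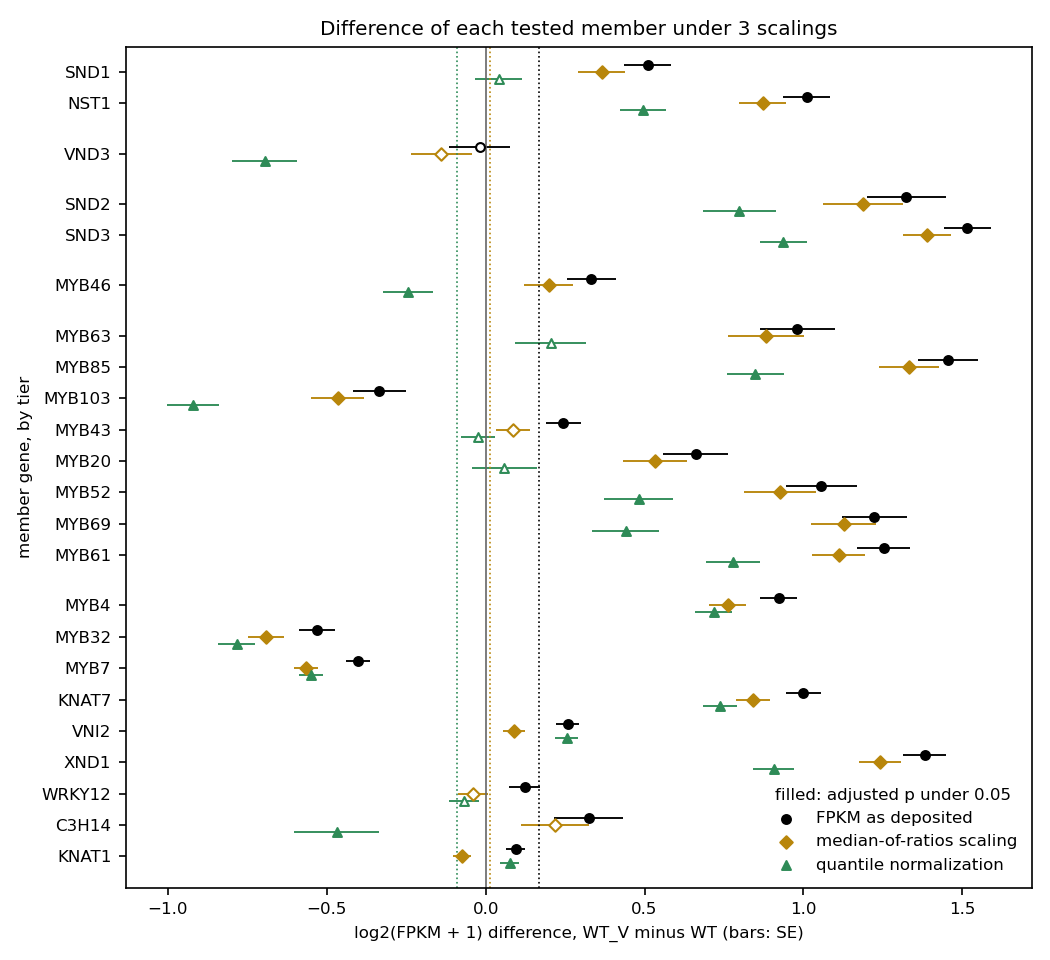
Difference of log2(FPKM + 1), WT_V minus WT, for the 23 tested members under 3 scalings, with bars of 1 SE. Filled symbols mark a limma adjusted p under 0.05, and dotted lines mark the median of all genes tested under each scaling. SND3 and MYB85 lie farthest to the right and MYB32 farthest to the left on the deposited scale, while MYB46 and C3H14 cross 0 under quantile normalization.

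Among the fibre NAC switches both tested genes were higher in WT_V. SND1 (AT1G32770, also NST3), which acts with NST1 to thicken fibre walls in stems, stood at 6.17, 7.0 and 7.02 FPKM in WT_V and at 4.30, 4.71 and 4.27 FPKM in WT. The sets did not overlap, and the log2 difference was 0.51 ± 0.07 (SE, limma adjusted p = 8.97e-05). With quantile normalization that difference was 0.041 and the call was lost (limma adjusted p = 0.630). NST1 (AT2G46770) stood at 6.69, 6.63 and 6.22 FPKM in WT_V and at 2.71, 2.55 and 2.94 FPKM in WT. Its WT_V mean was 2.38 times its WT mean, and the log2 difference was 1.01 ± 0.07 (limma adjusted p = 3.93e-07). SND1 and NST1 were thus close to each other in WT_V, and SND1 was the higher of the pair in every WT library.

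NST2 (AT3G61910), known with NST1 for the wall thickening of the anther endothecium, had a mean under 1 FPKM over the 6 libraries and was left out of the test. It stood at 1.15, 1.61 and 1.31 FPKM in WT_V and at 0.0800, 0.0520 and 0.334 FPKM in WT. These values rest on 70, 102 and 77 fragments in WT_V and on 4, 3 and 17 fragments in WT. With no filter limma called it higher (log2 difference 1.03, adjusted p = 0.000189), where 62.3% of 27237 genes were called. The 3 fibre switches together summed to 14 to 15.2 FPKM in WT_V and 7.09 to 7.54 FPKM in WT.

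The vessel NAC switches were low in both sets, and VND3 was the 1 member of 7 that could be tested. VND3 (AT5G66300) stood at 2.61, 2.004 and 2.43 FPKM in WT_V and at 2.43, 2.18 and 2.55 FPKM in WT. The sets overlapped, and the log2 difference of -0.019 ± 0.097 was not called (limma adjusted p = 0.864). With quantile normalization VND3 was called lower, at -0.70 (limma adjusted p = 0.000124). It was the most abundant of the 7 vessel genes in both sets.

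The other 6 vessel genes averaged under 1 FPKM over the 6 libraries. VND6 (AT5G62380), the metaxylem vessel switch, stood at 0.729, 0.513 and 0.931 FPKM in WT_V and at 0.182, 0.141 and 0.0598 FPKM in WT. VND7 (AT1G71930), the protoxylem vessel switch, stood at 0.274, 0.516 and 0.270 FPKM in WT_V and at 0.0706, 0.260 and 0.121 FPKM in WT. For both genes every WT_V library lay above every WT library, for VND7 by a narrow margin. With no filter limma called VND6 higher (adjusted p = 0.00108) and did not call VND7 (adjusted p = 0.0606).

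VND1 (AT2G18060), VND2 (AT4G36160), VND4 (AT1G12260) and VND5 (AT1G62700) also promote vessel differentiation. VND1 stood at 0.591, 0.518 and 0.329 FPKM in WT_V and at 0.168, 0.160 and 0.281 FPKM in WT. VND2 stood at 0.811, 0.897 and 1.03 FPKM in WT_V and at 0.352, 0.111 and 0.299 FPKM in WT. The sets did not overlap in either gene, and with no filter limma called both higher (adjusted p = 0.0141 for VND1 and 0.000704 for VND2). VND4 stood at 0.682, 0.502 and 0.439 FPKM in WT_V and at 0.238, 0.0804 and 0.0260 FPKM in WT, again without overlap (no filter, limma adjusted p = 0.00288). VND5 stood at 1.003, 1.37 and 0.845 FPKM in WT_V and at 0.854, 0.835 and 0.916 FPKM in WT, and these sets overlapped (no filter, limma adjusted p = 0.254). In the TAIR10.1 annotation VND2 and VND6 each overlap 1 gene on the other strand, and VND5 overlaps 1 gene on its own strand. Neither the strand setting nor the treatment of reads shared between genes is given in the sources used here, so their reads may be shared. The 7 vessel switches summed to 6.28 to 6.70 FPKM in WT_V and 3.77 to 4.29 FPKM in WT, with VND3 and VND5 carrying most of the sum in WT.

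The downstream NACs SND2 and SND3 both rose, with log2 differences above those of SND1 and NST1. SND2 (AT4G28500), a fibre NAC downstream of SND1, stood at 7.09, 7.33 and 7.28 FPKM in WT_V and at 1.62, 2.78 and 2.597 FPKM in WT. The WT_V libraries were close together and all above the WT libraries, with a log2 difference of 1.32 ± 0.12 (limma adjusted p = 2.72e-06). SND3 (AT1G28470), the other NAC of this tier, stood at 6.30, 6.02 and 6.08 FPKM in WT_V and at 1.42, 1.54 and 1.54 FPKM in WT. Its difference in log2(FPKM + 1) of 1.51 ± 0.07 was the greatest among the 23 tested members without rescaling (limma adjusted p = 1.49e-08). By the ratio of mean FPKM MYB69 stood above SND3, at 4.57 against 4.10. Its fragments numbered 424 to 457 in WT_V libraries and 84 to 105 in WT libraries.

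The share of the downstream NACs relative to SND1 also differed within libraries. Such a ratio is unchanged when all values of a library are multiplied by 1 factor, though not under quantile normalization. The ratios given here were picked after the values had been seen. SND3 was at 0.917 ± 0.0916 of the SND1 level in WT_V libraries and at 0.339 ± 0.0195 in WT libraries (SD, n = 3 each). SND2 was at 1.08 ± 0.0623 and 0.525 ± 0.129 of the SND1 level in WT_V and WT libraries. Neither ratio overlapped between the sets, and each gave p = 0.1 in an exact two-sided permutation test, the smallest that 3 against 3 libraries allow. How many of all genes separate in this way against SND1 was not computed.

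Of the MYB switches of the second tier, MYB46 was higher in WT_V and MYB83 was too low to test. MYB46 (AT5G12870), a direct target of the NAC switches and an activator of all 3 wall polymers, stood at 4.23, 4.17 and 3.71 FPKM in WT_V and at 2.93, 3.08 and 2.98 FPKM in WT. The sets did not overlap, and the log2 difference was 0.33 ± 0.08 (limma adjusted p = 0.00255). Quantile normalization turned the sign, at -0.24 with a limma adjusted p of 0.0160. The ratio of MYB46 to SND1 was 0.603 ± 0.0791 in WT_V libraries and 0.678 ± 0.0226 in WT libraries, and the sets overlapped (exact permutation p = 0.3).

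MYB83 (AT3G08500), which acts redundantly with MYB46, was scarce. It stood at 0.406, 0.515 and 0.687 FPKM in WT_V and at 0.241, 0.307 and 0.404 FPKM in WT, from 35, 46 and 57 fragments and from 17, 25 and 29 fragments. The highest WT library fell just below the lowest WT_V library, and with no filter limma did not call MYB83 (adjusted p = 0.0508).
The 300 bases upstream of MYB83 are shown because they hold an AC element, the kind of site that MYB46 and its relatives bind. They are chr3:2578277-2578576 in TAIR10.1, read 5′ to 3′ on the gene's minus strand up to the base before the annotated start. Capitals mark a match to the secondary wall MYB-responsive element (SMRE), which here lies on the opposite strand and reads ACCAACC there.
MYB83: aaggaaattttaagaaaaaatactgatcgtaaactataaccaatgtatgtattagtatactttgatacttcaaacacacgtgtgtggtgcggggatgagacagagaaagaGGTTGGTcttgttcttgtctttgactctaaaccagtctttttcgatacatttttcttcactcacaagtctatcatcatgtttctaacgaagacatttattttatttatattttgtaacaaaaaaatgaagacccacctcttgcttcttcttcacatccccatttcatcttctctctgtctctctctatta
The match begins 190 bases upstream of the annotated start.

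Of the 11 downstream MYBs 8 were tested, 7 were higher in WT_V and 1 was lower, with a median log2 difference of 1.02. Across all genes tested 51.9% were called higher and 24.1% lower, with a median of 0.17. Of the 7, MYB63 and MYB69 averaged under 1 FPKM in WT and passed the filter through WT_V. Quantile normalization gave 4 of the 8 as higher and 1 as lower. The lignin activators MYB58 (AT1G16490) and MYB63 (AT1G79180) are a close pair, and only MYB63 had values above 0. MYB63 stood at 2.42, 2.16 and 2.601 FPKM in WT_V and at 0.5, 0.968 and 0.719 FPKM in WT. No WT library reached the lowest WT_V library, and the log2 difference was 0.98 ± 0.12 (limma adjusted p = 2.12e-05), or 0.20 and not called with quantile normalization (limma adjusted p = 0.121). MYB58 was listed at 0 in all 6 libraries, and an annotated gene overlaps it on the other strand.

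MYB85 (AT4G22680), another activator of lignin genes, stood at 5.29, 5.64 and 5.56 FPKM in WT_V and at 1.24, 1.68 and 1.22 FPKM in WT. The sets were far apart, with a mean in WT_V 3.99 times that in WT and a log2 difference of 1.46 ± 0.09 (limma adjusted p = 1.31e-07). MYB20 (AT1G66230), which with MYB42, MYB43 and MYB85 activates lignin and phenylalanine synthesis genes, stood at 4.68, 3.85 and 3.77 FPKM in WT_V and at 2.22, 1.91 and 2.54 FPKM in WT. Its sets did not overlap, and it was called higher (0.66 ± 0.10, limma adjusted p = 0.000148), a call that quantile normalization ended (0.059, limma adjusted p = 0.613).

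MYB43 (AT5G16600) was the most abundant downstream MYB, and its difference was small. It stood at 13.5, 13.2 and 12.4 FPKM in WT_V and at 10.96, 10.4 and 11.2 FPKM in WT. All WT_V libraries were above all WT libraries, and the log2 difference was 0.24 ± 0.06 (limma adjusted p = 0.00206). Median-of-ratios scaling ended that call (0.086, limma adjusted p = 0.180), and quantile normalization gave -0.025 (limma adjusted p = 0.686). MYB42 (AT4G12350), a close relative of MYB85, stood at 0.325, 0.126 and 0.254 FPKM in WT_V and at 0.219, 0.293 and 0.254 FPKM in WT, and these sets overlapped (no filter, limma adjusted p = 0.7495). Of the 4 related genes MYB20, MYB42, MYB43 and MYB85, the last therefore had the greatest difference, and its ratio to MYB43 was 0.423 ± 0.0299 in WT_V libraries and 0.128 ± 0.0296 in WT libraries.

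MYB103 (AT1G63910), needed for syringyl lignin through the gene of ferulate 5-hydroxylase, was the 1 downstream MYB that was lower in WT_V. It stood at 3.06, 2.90 and 2.79 FPKM in WT_V and at 3.69, 4.34 and 3.79 FPKM in WT. No WT_V library reached a WT library, and the log2 difference was -0.33 ± 0.08 (limma adjusted p = 0.00348). It was also called lower with median-of-ratios scaling (-0.47) and quantile normalization (-0.92). Its recovered fragments were 218, 214 and 191 in WT_V libraries and 215, 292 and 225 in WT libraries, before division by a larger total in WT_V.

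MYB52, MYB54 and MYB69 are MYBs whose dominant repression thins fibre walls, and MYB61 acts on xylem and on stomata. MYB52 (AT1G17950) stood at 5.40, 5.68 and 4.86 FPKM in WT_V and at 2.21, 2.41 and 1.55 FPKM in WT. Its sets did not overlap, with a log2 difference of 1.06 ± 0.11 (limma adjusted p = 8.19e-06). MYB69 (AT4G33450) stood at 2.92, 2.96 and 2.36 FPKM in WT_V and at 0.679, 0.573 and 0.553 FPKM in WT. MYB61 (AT1G09540) stood at 7.72, 8.32 and 9.33 FPKM in WT_V and at 3.22, 2.96 and 2.72 FPKM in WT. Both were well apart between the sets, with log2 differences of 1.22 ± 0.10 and 1.25 ± 0.08 (limma adjusted p = 1.1e-06 and 1.8e-07).

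MYB54 (AT1G73410) lay under the filter and was scarce in WT. It stood at 1.996, 1.02 and 1.69 FPKM in WT_V and at 0.0174, 0.0756 and 0.103 FPKM in WT. The sets were far apart, but the WT values rest on so few fragments that no fold is given. With no filter limma called it higher (log2 difference 1.25, adjusted p = 0.000201).
The upstream window of MYB52 is shown because its SMRE lies nearest to an annotated start of any member's. The window is chr1:6177181-6177480 in TAIR10.1 on the plus strand, and the capitals mark the element, which lies on the opposite strand, where it reads ACCAAAC, and begins 30 bases upstream.
MYB52: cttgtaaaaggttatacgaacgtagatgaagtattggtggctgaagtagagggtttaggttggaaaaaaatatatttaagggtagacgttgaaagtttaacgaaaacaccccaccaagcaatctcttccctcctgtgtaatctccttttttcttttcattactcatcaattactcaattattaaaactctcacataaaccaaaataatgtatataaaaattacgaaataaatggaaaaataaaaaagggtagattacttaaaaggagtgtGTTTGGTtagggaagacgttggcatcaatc

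Within libraries the downstream MYBs shifted against MYB46 in opposite directions. MYB85 was at 1.37 ± 0.125 times the MYB46 level in WT_V libraries and 0.459 ± 0.0745 times in WT libraries (SD, n = 3 each). MYB69 was at 0.679 ± 0.0383 times in WT_V libraries and 0.201 ± 0.0264 times in WT libraries. MYB63, MYB61, MYB20 and MYB52 were also higher against MYB46 in WT_V libraries. MYB103 went the other way, at 0.723 ± 0.0276 times in WT_V libraries and 1.31 ± 0.0851 times in WT libraries. So did MYB43, by less, at 3.23 ± 0.0895 times in WT_V libraries and 3.62 ± 0.225 times in WT libraries. In each of these ratios to MYB46 the sets did not overlap, with an exact permutation p of 0.1, the smallest possible.

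**Figure D3:**
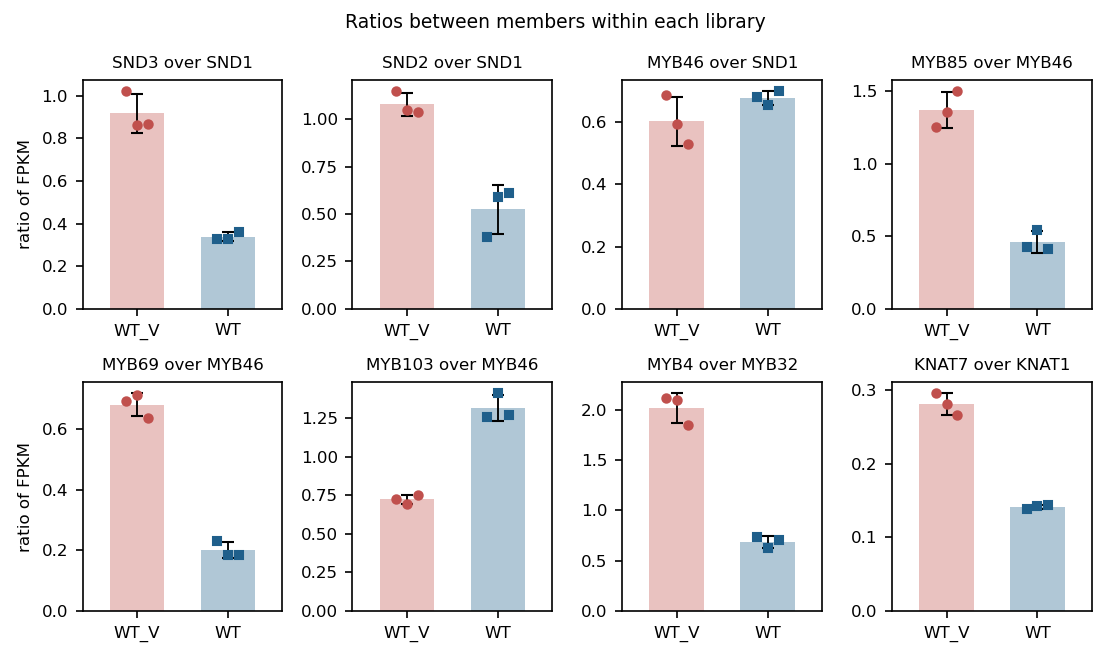
Ratios of FPKM between pairs of members within each library. Bars are means, whiskers are SDs and symbols are single libraries (n = 3 per set), with WT_V left of WT. SND3, SND2, MYB85, MYB69, MYB4 and KNAT7 stand higher against their partner in WT_V, MYB103 stands lower against MYB46, and MYB46 over SND1 overlaps between the sets.

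Repressors and modulators made up most of the members' transcripts. Their sum was 226.8 to 232.1 FPKM in WT_V and 194.7 to 200.8 FPKM in WT, and VNI2 and KNAT1 led it in both sets. As a share of the sum over all members they took 73.0% ± 0.358 in WT_V and 82.0% ± 0.534 in WT (SD, n = 3 each), without overlap (exact permutation p = 0.1, the smallest possible). All 9 were tested, 7 were higher in WT_V and 2 were lower, with a median log2 difference of 0.26. Over all genes tested 51.9% were higher and 24.1% lower, with a median of 0.17. Median-of-ratios scaling gave 4 of the 9 as higher and 3 as lower, with a median of 0.089. Under that scaling 7262 of all genes tested were higher and 6789 lower, with a median of 0.014. Leaving out WT_V library 1 or WT_V library 3 also left 4 of the 9 higher.

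MYB4, MYB32 and MYB7 are closely related repressors of phenylpropanoid genes, and they did not move together. MYB4 (AT4G38620), which represses the cinnamate 4-hydroxylase gene, stood at 21.8, 24.1 and 21.6 FPKM in WT_V and at 11.9, 10.7 and 11.6 FPKM in WT. The sets did not overlap, and the WT_V mean was 1.97 times the WT mean, at a log2 difference of 0.92 ± 0.06 (limma adjusted p = 1.03e-07). MYB32 (AT4G34990) stood at 10.3, 11.5 and 11.7 FPKM in WT_V and at 16.1, 17.2 and 16.4 FPKM in WT. MYB7 (AT2G16720) stood at 19.3, 19.8 and 20.1 FPKM in WT_V and at 26.7, 26.3 and 26.0 FPKM in WT. Both lay lower in every WT_V library, with log2 differences of -0.53 ± 0.06 for MYB32 and -0.40 ± 0.04 for MYB7 (limma adjusted p = 7.79e-06 and 2.71e-06). Their recovered fragments ran from 689 to 1868 in WT_V libraries and from 725 to 1575 in WT libraries, so counting error was small beside the differences.
The upstream windows of this trio are shown because all 3 hold an SMRE while their levels moved in different directions. They are chr4:18053060-18053359 on the plus strand for MYB4, chr4:16662550-16662849 on the minus strand for MYB32 and chr2:7256832-7257131 on the minus strand for MYB7, in TAIR10.1, with each SMRE in capitals.
MYB4: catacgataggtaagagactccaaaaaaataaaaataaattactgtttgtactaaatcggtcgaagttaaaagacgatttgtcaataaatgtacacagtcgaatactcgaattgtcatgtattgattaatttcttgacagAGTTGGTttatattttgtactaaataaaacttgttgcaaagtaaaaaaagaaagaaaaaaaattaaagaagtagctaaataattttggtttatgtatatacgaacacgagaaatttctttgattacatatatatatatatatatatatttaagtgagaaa
MYB32: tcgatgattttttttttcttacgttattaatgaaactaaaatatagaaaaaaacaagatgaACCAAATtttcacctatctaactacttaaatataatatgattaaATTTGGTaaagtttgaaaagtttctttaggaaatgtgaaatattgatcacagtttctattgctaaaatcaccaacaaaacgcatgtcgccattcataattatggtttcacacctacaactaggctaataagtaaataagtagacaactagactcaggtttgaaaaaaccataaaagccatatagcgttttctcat
MYB7: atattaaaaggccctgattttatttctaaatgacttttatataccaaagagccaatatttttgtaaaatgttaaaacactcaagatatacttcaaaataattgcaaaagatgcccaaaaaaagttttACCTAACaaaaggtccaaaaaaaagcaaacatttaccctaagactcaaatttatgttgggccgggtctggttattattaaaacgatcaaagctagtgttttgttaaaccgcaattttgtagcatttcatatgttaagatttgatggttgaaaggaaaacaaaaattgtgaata
MYB7 carries ACCTAAC, an AC element, on the strand of the gene, MYB32 carries ACCAAAT once on each strand, and MYB4 carries ACCAACT on the opposite strand. The level of MYB4 was 2.02 ± 0.147 times that of MYB32 in WT_V libraries and 0.690 ± 0.0589 times in WT libraries, so the order of the pair was reversed between the sets. The ratio of MYB32 to MYB7 differed less, at 0.566 ± 0.0265 in WT_V libraries and 0.628 ± 0.0231 in WT libraries.

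KNAT7 and XND1 rose among the other repressors. KNAT7 (AT1G62990), a homeodomain protein that restrains fibre wall thickening, stood at 18.6, 16.8 and 16.8 FPKM in WT_V and at 8.16, 8.22 and 8.24 FPKM in WT. The WT libraries were almost equal and all far below WT_V, with a log2 difference of 1.0 ± 0.05 (limma adjusted p = 3.43e-08). XND1 (AT5G64530), a NAC protein that blocks xylem vessel differentiation, stood at 8.29, 8.58 and 8.64 FPKM in WT_V and at 2.62, 2.54 and 2.79 FPKM in WT. Its sets were also far apart, with a mean in WT_V 3.21 times that in WT and a log2 difference of 1.38 ± 0.07 (limma adjusted p = 1.36e-08).

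The 2 most abundant members had small differences. VNI2 (AT5G13180), a NAC protein that binds VND7 and represses its activity, stood at 69.9, 65.7 and 68.8 FPKM in WT_V and at 58.0, 54.4 and 58.0 FPKM in WT. The sets did not overlap, and the log2 difference was 0.26 ± 0.04 (limma adjusted p = 5.77e-05), or 0.089 with median-of-ratios scaling (limma adjusted p = 0.0374). An annotated gene on the other strand overlaps VNI2. KNAT1 (AT4G08150, also BREVIPEDICELLUS), a homeodomain protein that limits lignin deposition in the stem, stood at 63.0, 60.04 and 63.3 FPKM in WT_V and at 59.2, 57.7 and 57.5 FPKM in WT. The lowest WT_V library was just above the highest WT library, and the difference was 0.095 ± 0.030 (limma adjusted p = 0.0143). Median-of-ratios scaling turned it to -0.074 (limma adjusted p = 0.0405), and the call was lost without a trend in the fit (limma adjusted p = 0.0555), without WT_V library 1 (0.0512) or without WT_V library 3 (0.0569).

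WRKY12 and C3H14 had the least firm calls. WRKY12 (AT2G44745), a repressor of wall formation in pith, stood at 18.6, 18.7 and 18.8 FPKM in WT_V and at 16.7, 16.4 and 18.2 FPKM in WT. WT library 3 came close to WT_V, and the log2 difference of 0.12 ± 0.05 had a limma adjusted p of 0.0377. That call was lost with median-of-ratios scaling (-0.040, limma adjusted p = 0.467), with quantile normalization (-0.068, limma adjusted p = 0.209) and without any 1 library other than WT library 3 (limma adjusted p from 0.0734 to 0.126). C3H14 (AT1G66810), a zinc finger protein that activates wall genes downstream of MYB46, stood at 2.23, 1.59 and 2.05 FPKM in WT_V and at 1.52, 1.28 and 1.26 FPKM in WT. The sets almost touched, and the log2 difference was 0.32 ± 0.11 (limma adjusted p = 0.0189). Quantile normalization turned it to -0.47 (limma adjusted p = 0.00859), median-of-ratios scaling ended the call (limma adjusted p = 0.0904), and so did leaving out WT_V library 1, WT_V library 3, WT library 2 or WT library 3 (limma adjusted p from 0.0541 to 0.0713).

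The enzymes that the network controls were mostly higher as well. Of 28 wall enzyme genes, 26 were higher in WT_V, none was lower and 2 (CYP98A3 and CAD4) were not called. Their median log2 difference was 0.88, beside 0.66 for the members and 0.17 for all genes tested. Across all genes tested 51.9% were called higher and 24.1% lower. Median-of-ratios scaling gave 23 of the 28 as higher and 2 as lower, and 7262 and 6789 of all 19144 genes tested. The greatest increases were those of LAC4, a lignin laccase, GUX2, a xylan glucuronosyltransferase, CESA8, a secondary wall cellulose synthase, and IRX8, a xylan gene, at log2 differences of 1.57 to 2.17. The vessel cell death proteases XCP1, XCP2 and MC9 were all called higher on the deposited scale, and 2 of the 3 with quantile normalization. XCP1 averaged 0.888 FPKM in WT and passed the filter only through WT_V. MC9, the metacaspase of dying xylem, stood at 8.996 ± 0.511 FPKM in WT_V and 1.58 ± 0.481 FPKM in WT (log2 difference 1.97, limma adjusted p = 1.21e-07).

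Regulators upstream of the members, or binding them, were higher in 18 of 20 tested genes of 23, with a median log2 difference of 0.56. Across all genes tested 51.9% were called higher and 24.1% lower, with a median of 0.17. Quantile normalization gave 14 of these regulators as higher and 2 as lower, with a median of 0.257. Of the 20 tested, 4 averaged under 1 FPKM in WT and passed the filter only through WT_V, LBD30, LBD18 and OFP1 among them. LBD30, which acts with LBD18 to raise VND7 expression, stood at 11.9, 11.3 and 11.8 FPKM in WT_V and at 0, 0.0197 and 0.0892 FPKM in WT. LBD18 stood at 3.27 ± 0.104 FPKM in WT_V and 0.104 ± 0.105 FPKM in WT. VND7 itself remained under 1 FPKM in every library, as given above. OFP1 and MYB75, which both bind KNAT7, averaged 2.67 ± 0.154 and 31.6 ± 1.42 FPKM in WT_V and 0.784 ± 0.360 and 5.12 ± 0.157 FPKM in WT, and MYB75 is also the anthocyanin activator PAP1. STM, a meristem homeodomain gene, was the 1 lower regulator, at 56.5 ± 0.830 FPKM in WT_V and 65.8 ± 3.89 FPKM in WT.

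The families of the members gave a further background. Among 48 tested NAC genes outside the network (of 87), 36 were higher and 6 lower in WT_V, with a median log2 difference of 0.49. Among 56 tested MYB genes outside it (of 114), 34 were higher and 11 lower, with a median of 0.39. The shares over all genes tested were 51.9% higher and 24.1% lower, with a median of 0.17. Quantile normalization reversed the balance of these MYB genes, with 22 higher, 27 lower and a median of -0.058. The genes named by rule were NTL8, NAC038, NAC016 and ANAC087 among NAC genes, and MYB118, MYB90, PAP1 and MYB107 among MYB genes. Of the tested genes 4 NAC and 12 MYB genes averaged under 1 FPKM in WT, among them NTL8, NAC038, ANAC087, MYB118 and MYB107, and could pass the filter only through WT_V. MYB118, a seed-expressed MYB, was listed at 0 in all WT libraries and averaged 8.44 ± 0.594 FPKM in WT_V.

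The members were also set against the wall cellulose synthases. The sum of CESA4, CESA7 and CESA8 was 57.4, 60.5 and 59.8 FPKM in WT_V and 22.2, 23.2 and 22.6 FPKM in WT, a comparison also chosen after values were seen. The WT_V mean of this sum was 2.61 times the WT mean, so a gene whose ratio is below that is lower on this scale by construction. Per 100 FPKM of this sum, 14 of the 23 tested members were lower in WT_V without overlap, 5 were higher (SND2, SND3, MYB85, MYB69 and XND1) and 4 overlapped (NST1, MYB63, MYB52 and MYB61). Of all 19144 genes tested, 86.3% were lower and 8.37% were higher in the same way. SND1 stood at 11.4 ± 0.528 in WT_V and 19.5 ± 0.729 in WT on this scale, and MYB46 at 6.82 ± 0.589 and 13.2 ± 0.0497. Of the tested members MYB32 had the lowest ratio between the sets, at 18.8 ± 0.766 in WT_V against 73.0 ± 0.848 in WT. MYB85 stood at 9.29 ± 0.0541 in WT_V and 6.07 ± 1.01 in WT, and NST1, at 11.01 ± 0.627 and 12.1 ± 1.01, did not separate the sets.

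**Figure D4:**
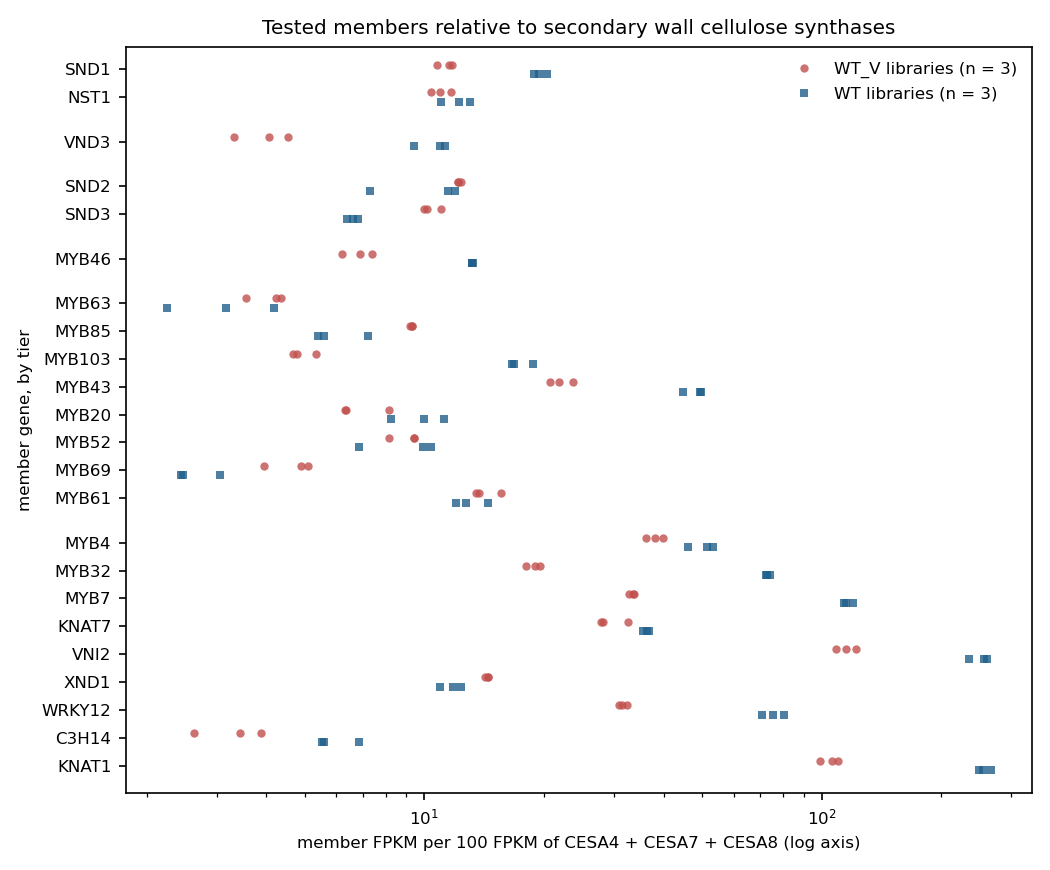
FPKM of each tested member per 100 FPKM of CESA4, CESA7 and CESA8 summed, in each library, on a log axis, with WT_V circles above WT squares (n = 3 libraries per set). Of the 23 members 14 lie lower in WT_V, with MYB32, MYB103 and MYB7 farthest from WT, and 5 lie higher, where 86.3% and 8.37% of all genes tested do so.

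Elements that MYB46 and related MYBs bind lay upstream of some members and not of others. The SMRE search took 8 words (ACCAAAC and ACCAAAT, or ACCAACC and ACCAACT, or ACCTAAC and ACCTAAT, or ACCTACC and ACCTACT) on both strands, in the 300 bases upstream of each annotated start. It matched 9 of 34 members (26.5%), 17 of 28 wall enzyme genes (60.7%) and 33.9% of 27443 protein-coding genes. The 9 members were VND4, VND7, MYB83, MYB42, MYB52, MYB4, MYB32, MYB7 and C3H14, of which the tested ones moved in both directions. The AC elements, which are ACCAACC or ACCTAAC or ACCTACC and thus a subset of the SMRE words, matched 3 members (8.82%), 25.0% of wall enzyme genes and 7.16% of coding genes.

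The binding element of the NAC switches (SNBE), searched on both strands, matched 17 members (50%), 53.6% of wall enzyme genes and 48.7% of coding genes. MYB83 held 5 SNBE matches in the window printed above, whereas MYB46 held 1. The stretch of MYB83 that begins 139 bases upstream matched on both strands and was counted once for each. The tracheary element-regulating word CTTNAAAGCNA matched 0 members, 1 wall enzyme gene (3.57%) and 0.430% of coding genes. A match is a match of letters in these windows, and the sites bound in these stems were not measured.

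**Figure D5:**
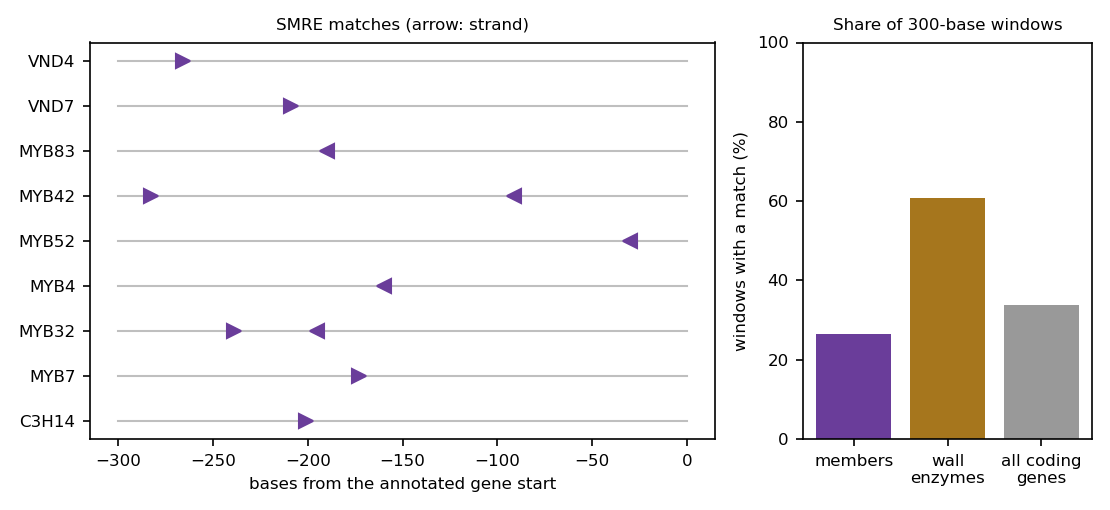
Left, positions of SMRE matches in the 300 bases upstream of the annotated start for the 9 members that have one, with the arrow pointing right for the gene's strand and left for the opposite strand. Right, the percent of such windows with a match, 26.5% for members, 60.7% for wall enzyme genes and 33.9% for all protein-coding genes.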

How the data were processed

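The values are FPKM, fragments per kilobase of exon scaled to a library total, as deposited by the authors. Reads were processed with HTSeq 0.6.1, TopHat2 2.0.12 and Bowtie2 2.2.3, per the submitters' processing notes. Not given in the sources used here are the genome build and annotation, the strand setting and how reads shared between genes were treated. Columns named WT were matched by name to wild type titles.

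The test was limma 3.58.1 (R 4.3.3) with an intensity trend, applied to log2(FPKM + 1) of the 19144 genes that averaged at least 1 FPKM over the libraries. Differences are WT_V minus WT, with Benjamini-Hochberg adjustment at 0.05. This scale understates the change of low genes. Ratios are of mean FPKM.

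Fragments, used as a description only, were recovered from FPKM steps and TAIR10.1 exon lengths, which may not be the authors', and were whole within 0.02 for at least 99.0% of genes checked. In each pair of libraries within a set the mean chi-square per gene was 3.22 to 3.54 over 9231 genes, so the libraries differed by more than counting error. Of the 34484 identifiers 32548 matched TAIR10.1, whose sequence and annotation gave the upstream windows. No stretch of 50 bases of a member's exons occurred elsewhere in that genome (blastn 2.17.0).

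The members and lists were chosen with earlier results of these data known. Named genes were all members, GAMMA-VPE and, per other list, the 4 called genes with the greatest log2 difference. CYP98A3, CAD4, STM, MUM2 and the anther markers were named after their values were seen. Settings tried in turn were median-of-ratios scaling, quantile normalization, removal of organelle and non-coding identifiers, pseudocounts of 0.1 and 5, a filter at 5 FPKM or none, no trend, a replicate block and each library left out. Figures used matplotlib 3.10.9 (Python 3.11.15).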

Additional observations from a re-analysis of the deposited data

How the results depend on the processing

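Members were called higher 15 times with median-of-ratios scaling, 12 times with quantile normalization (with 6 lower) and 9 times with a minimum of 5 FPKM, and 16 to 18 times when 1 library was left out. Over all genes quantile normalization gave 5711 higher and 8596 lower. The minimum of 5 FPKM left fewer genes to test: 1 fibre switch, 0 downstream NACs, 0 second-tier MYBs and 2 downstream MYBs were higher, and 0 downstream MYBs lower. Quantile normalization gave 1 fibre switch and 4 downstream MYBs higher, 0 second-tier MYBs higher and 1 lower, and 1 vessel switch lower. With no filter 4 of the 7 vessel switches were higher and the median of the tier was 0.30, where 62.3% of 27237 genes were called in either direction. Repressors and modulators numbered 4 higher and 3 lower with median-of-ratios scaling, and between 4 and 6 higher when a library was left out.

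Signs turned for MYB46 (-0.24), MYB43 (-0.025), WRKY12 (-0.068) and C3H14 (-0.47) with quantile normalization, which also gave the second tier a median of -0.24, and for WRKY12 (-0.040) and KNAT1 (-0.074) with median-of-ratios scaling. VND3, the 1 tested vessel gene, and thus the vessel median, turned to 0.019 without organelle and non-coding identifiers, to 0.057 without WT_V library 2 and to 0.014 without WT library 3, with -0.076 as the lowest value when a library was left out. The cause was not tested.

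With the replicate number as a block, members were called higher 19 times and lower 3 times, as without it, and all genes 9868 and 4609 times. Deviations of same-numbered libraries correlated at -0.0157, -0.0156 and 0.0141, so the numbers did not pair them. Depth limits the members under the filter: NST2, for one, rests on 3 to 17 fragments in WT libraries.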
